A study of Drosophila melanogaster with 10 samples.

Results

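The 10 genes described here encode the core of Notch signaling from the cell surface to the nucleus. They are the receptor gene *N*, the ligand genes *Dl* and *Ser*, the glycosyltransferase gene *fng*, the nuclear genes *Su(H)* and *mam*, and the γ-secretase genes *Psn*, *nct*, *pen-2* and *aph-1*. They were chosen by gene symbol, and all 10 were found among the 17807 genes of the count table. RNA was sequenced from whole wing imaginal disks of larvae late in the third instar in 5 groups, which expressed Nkd, NkdΔR1S, NkdΔ30aa, NkdΔD6 or, as the control, GFP. *MS1096-Gal4* drove the *UAS* transgene in every group at 25 °C, and every Nkd form carried a GFP tag. NkdΔR1S lacks the region that binds Dsh, and NkdΔ30aa and NkdΔD6 each lack a potential nuclear localization signal. Each group had 2 samples of about 70 disks. The driver acts mainly in the pouch, so each sample pools expressing and nonexpressing cells. The methods describe biological duplicates without naming separate crosses, so the spread between samples of a group, on which every p-value rests, may be partly technical.

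In Notch signaling, a ligand on one cell binds the receptor on its neighbor, and the ligand is then pulled into its own cell by endocytosis. This exposes the receptor to cleavage by a metalloprotease outside the membrane and then by γ-secretase within it. The freed intracellular part enters the nucleus, where it joins Su(H) and Mam to activate target genes such as those of the *Enhancer of split* complex. In the wing disk the pathway acts at the dorsoventral boundary, where it maintains the wing margin, and it also sets the width of the veins. *nkd* encodes a feedback inhibitor of Wingless signaling, and Wingless is itself made at the margin under Notch control.

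The libraries held between 18695697 and 20941842 counts. Levels are given as CPM, counts relative to the library's total after TMM scaling, and errors as the SD over both libraries of a group. All 10 genes passed the filter on low counts, with raw counts from 360 for *Su(H)* to 9784 for *N*. The level of *nkd*, which includes the transgene, averaged 1165 ± 34.3 CPM in Nkd disks, 429 ± 118 CPM in NkdΔR1S disks, 1337 ± 228 CPM in NkdΔ30aa disks and 1171 ± 252 CPM in NkdΔD6 disks, against 53.7 ± 23.2 CPM in GFP disks (SD, n = 2 per group). All 10 listed markers of the wing pouch were detected in every library. Their summed level was 945 to 1049 CPM in Nkd, 796 to 1020 CPM in NkdΔR1S, 1352 to 1480 CPM in NkdΔ30aa and 1050 to 1118 CPM in NkdΔD6 libraries, against 619 to 844 CPM in GFP libraries. The summed markers of notum and hinge were higher too. Their sums were 961 to 1073 CPM in Nkd, 845 to 1166 CPM in NkdΔR1S, 1217 to 1376 CPM in NkdΔ30aa and 1061 to 1075 CPM in NkdΔD6 libraries, against 661 to 814 CPM in GFP libraries. The median log2 fold change over GFP of pouch markers was 0.52 for Nkd, 0.27 for NkdΔR1S, 1.15 for NkdΔ30aa and 0.68 for NkdΔD6. For notum and hinge markers it was 0.28, 0.24, 0.44 and 0.15 in the same order. With gene length offsets, described below, the pouch medians were 0.09, 0.05, 0.58 and 0.38. Those of notum and hinge were then 0.0008, 0.10, -0.01 and -0.06. In whole disks, a larger share of a cell type cannot be told apart from more RNA per cell. Markers of the salivary gland, a neighboring larval tissue, varied widely. All 8 were above 0 in every library, and their sum was 16668 CPM in Nkd replicate 1, 4935 CPM in GFP replicate 1 and between 57.5 and 1511 CPM in the other 8 libraries. Other tissues varied too. Summed gut markers were at 14.5 to 3495 CPM in Nkd libraries and 9.37 to 586 CPM in NkdΔR1S libraries. They were at 50.9 to 92.9 CPM in NkdΔ30aa and 666 to 916 CPM in NkdΔD6 libraries, against 169 to 412 CPM in GFP libraries. Summed fat body markers ranged from 506 CPM in a NkdΔ30aa library to 3480 CPM in a Nkd library. The part of these tissues in the results below was not tested, apart from the values without both libraries given with the Nkd counts.

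Libraries also differed in the level of long genes relative to short ones. Across the 9264 genes tested, the rank correlation of exon length with the log2 fold change over GFP was 0.55 for Nkd, 0.43 for NkdΔR1S, 0.66 for NkdΔ30aa and 0.52 for NkdΔD6. This bears on the Notch genes because those of the receptor and ligands are long and those of γ-secretase are short. *N* has 10150 exon bases, *mam* 8869, *Ser* 5831 and *Dl* 5278, whereas *Psn* has 2048, *pen-2* 1181 and *aph-1* 990, against a median of 2020 over the genes tested. Across the 10 genes the rank correlation of exon length with the log2 fold change over GFP was 0.87 for Nkd, 0.68 for NkdΔR1S, 0.87 for NkdΔ30aa and 0.94 for NkdΔD6. Since genes are no independent replicates, such values only describe the libraries. The fold changes were computed also with gene length offsets, which take out a smooth trend of each library on exon length. A length effect made in the RNA or library and a real change shared by long genes cannot be told apart by this fit.

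Each gene was tested in 1 quasi-likelihood fit of the 10 libraries with edgeR, and was called where the adjusted p was under 0.05 and the fold over 1.5 in either direction. In NkdΔ30aa disks the receptor, both ligands and *mam* were called higher than in GFP disks, and *Psn*, *pen-2* and *aph-1* lower. These 7 of 10 genes compare with 31.0% of all genes called in that comparison, 18.2% higher and 12.8% lower. In NkdΔD6 disks *N*, *Dl* and *Ser* were called higher, 3 of 10 genes against 16.2% of all genes (10.4% higher and 5.81% lower), and the number was 0 without GFP replicate 1 and 0 without NkdΔD6 replicate 1. In Nkd disks *N* and *Ser* were called higher and *pen-2* lower, 3 of 10 genes against 7.57% of all genes, 3.05% higher and 4.51% lower. For Nkd the number was 0 without GFP replicate 1, 0 without Nkd replicate 1, 0 without Nkd replicate 2 and 0 without both replicates 1, the libraries with the most salivary gland RNA. Here and below, counts with libraries left out are given without a share of all genes, so they are no result about these genes alone. In NkdΔR1S disks 0 of 10 genes were called, against 0.173% of all genes. Under gene length offsets the numbers called were 0 for Nkd, 0 for NkdΔR1S, 3 for NkdΔ30aa and 0 for NkdΔD6, against 0.604%, 0.216%, 9.65% and 5.87% of all genes in that order. The median log2 fold change over GFP of the 10 genes was 0.11 for Nkd, 0.05 for NkdΔR1S, 0.39 for NkdΔ30aa and 0.13 for NkdΔD6, beside medians of -0.05, -0.03, -0.13 and -0.10 over all genes tested. With the offsets the medians of the 10 genes were 0.0035, 0.11, 0.07 and 0.07 in the same order. The 4 comparisons share the GFP libraries, so their values stand side by side and do not support each other. *N*, *Ser*, *Dl* and *pen-2* are also genes that the study listed, without directions, as changed between Nkd and GFP disks on these samples. Its Notch list also holds *gro* and a gene given as *CBP*. Calls of these genes are thus not independent evidence. The fit used here did not call *Dl* or *gro* in Nkd disks.

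**Figure D1:**
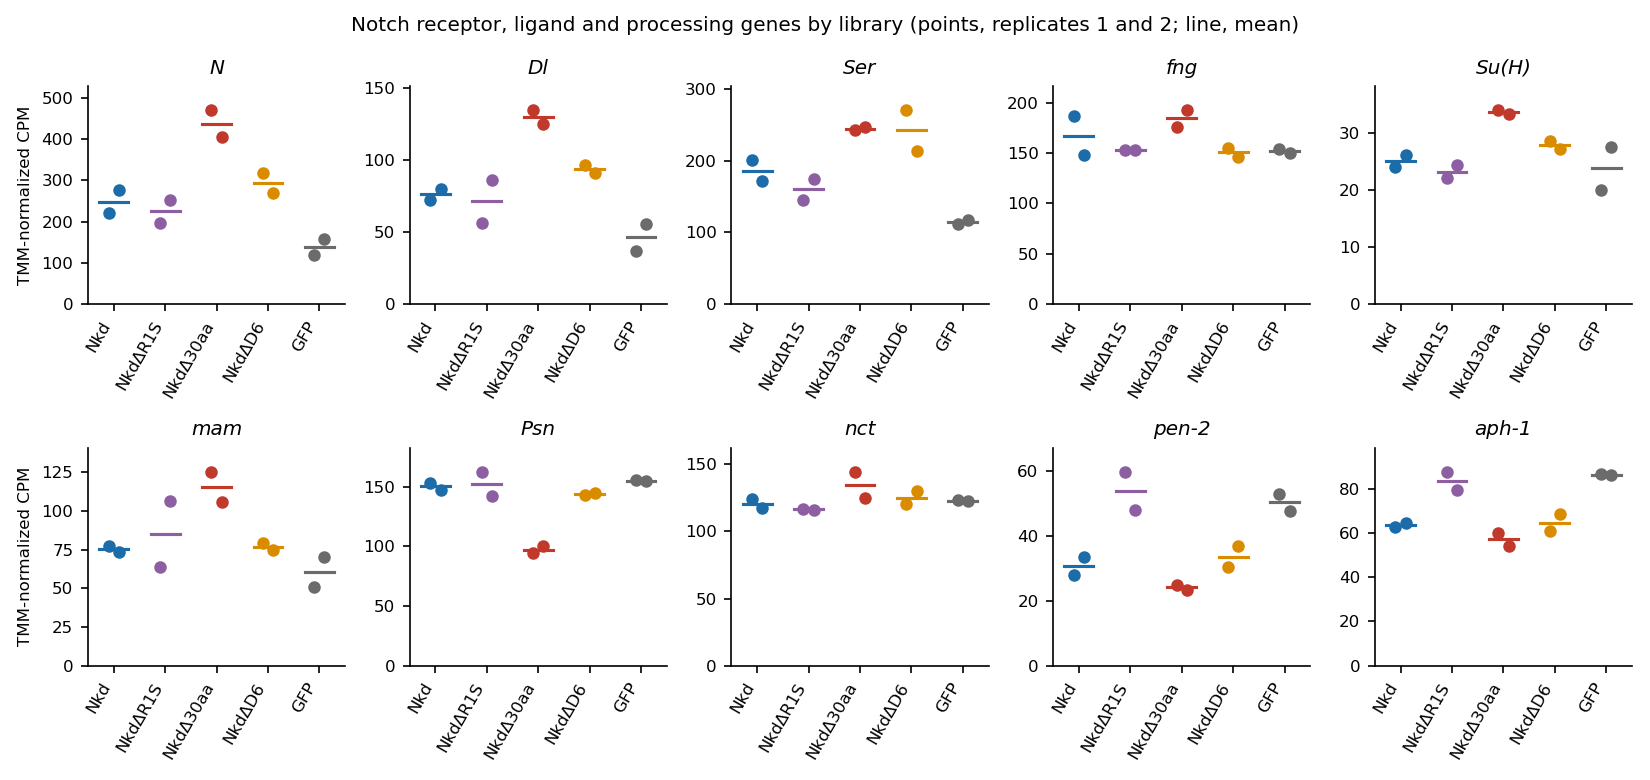
Level of each of the 10 Notch genes in each library, as TMM-normalized CPM on linear axes that start at 0, by group. Points are replicates 1 and 2 and lines are group means (n = 2). *N* is at 470 and 404 CPM in NkdΔ30aa disks and at 118 and 157 CPM in GFP disks, while *Psn* is at 94.2 and 100.2 CPM in NkdΔ30aa disks and between 142 and 163 CPM in the other 8 libraries.

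The receptor gene *N* (FBgn0004647, chromosome X from 3134870 to 3172221 of BDGP6, plus strand, 9 merged exons) was at 220.0 and 276 CPM in Nkd, 196 and 253 CPM in NkdΔR1S, 470 and 404 CPM in NkdΔ30aa and 317 and 269.7 CPM in NkdΔD6 libraries, against 118 and 157 CPM in GFP libraries. Every library with an Nkd form was above both GFP libraries, and both NkdΔ30aa libraries were above all others. Of all genes, 28.2% lay above both GFP libraries in Nkd disks, 20.9% in NkdΔR1S, 34.6% in NkdΔ30aa and 29.0% in NkdΔD6 disks, and 36.1%, 26.5%, 42.4% and 39.5% lay below both in the same order. The share of all genes with NkdΔ30aa apart from all other libraries was not computed. Such separation, here and below, is thus not shown to be particular to a gene. The log2 fold change over GFP was 1.67 in NkdΔ30aa disks (standard error 0.20, adjusted p = 0.000993), 1.09 in NkdΔD6 disks (standard error 0.19, adjusted p = 0.0104) and 0.85 in Nkd disks (standard error 0.19, adjusted p = 0.0294). In NkdΔR1S disks it was 0.71 (standard error 0.19, adjusted p = 0.163, 95% interval 0.27 to 1.15), which was not called. The log2 fold change of *N* with gene length offsets was 0.28 for Nkd, 0.21 for NkdΔR1S, 0.34 for NkdΔ30aa and 0.24 for NkdΔD6, and none of these passed the fold threshold. The 464 longest genes tested, of 7491 exon bases or more, had a median log2 fold change over GFP of 0.57 for Nkd, 0.50 for NkdΔR1S, 1.35 for NkdΔ30aa and 0.89 for NkdΔD6, and 76.9% of them were called higher in NkdΔ30aa disks.

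The ligand gene *Dl*, whose product signals between neighboring cells in lateral inhibition, is FBgn0000463 on chromosome 3R from 19302731 to 19326217, minus strand. It was at 72.5 and 79.7 CPM in Nkd, 56.5 and 86.4 CPM in NkdΔR1S, 134 and 125 CPM in NkdΔ30aa and 96.7 and 90.9 CPM in NkdΔD6 libraries, against 36.8 and 55.5 CPM in GFP libraries. No library with an Nkd form was below a GFP library, but NkdΔR1S replicate 1 exceeded GFP replicate 2 by little. *Dl* was called higher in NkdΔ30aa disks (log2 fold change 1.49, standard error 0.23, adjusted p = 0.00177) and in NkdΔD6 disks (1.02, standard error 0.23, adjusted p = 0.0176). It was not called in Nkd disks (0.72, standard error 0.23, adjusted p = 0.0646) or NkdΔR1S disks (0.63, standard error 0.23, adjusted p = 0.205). The increase of *Dl* in NkdΔ30aa disks with gene length offsets was 0.65 on the log2 scale (adjusted p = 0.0160) and was still called, and that in NkdΔD6 disks was 0.53 (adjusted p = 0.0454), under the fold threshold. The NkdΔ30aa call held under every alternative run, with each library left out in turn included.

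The second ligand gene *Ser*, needed early in wing growth on the dorsal side of the boundary, is FBgn0004197 on chromosome 3R from 27172090 to 27194267, minus strand. It was at 201 and 171 CPM in Nkd, 146 and 175 CPM in NkdΔR1S, 243 and 247 CPM in NkdΔ30aa and 271 and 214 CPM in NkdΔD6 libraries, against 111 and 118 CPM in GFP libraries. GFP libraries were again the lowest. The log2 fold change over GFP was 1.10 in NkdΔ30aa disks (standard error 0.14, adjusted p = 0.00109), 1.08 in NkdΔD6 disks (standard error 0.14, adjusted p = 0.00868) and 0.70 in Nkd disks (standard error 0.14, adjusted p = 0.0255), all called, and 0.49 in NkdΔR1S disks (standard error 0.14, adjusted p = 0.172). Unlike for *N* and *Dl*, the NkdΔ30aa and NkdΔD6 libraries of *Ser* overlapped. The values for *Ser* with gene length offsets were 0.28 for Nkd, 0.15 for NkdΔR1S, 0.16 for NkdΔ30aa and 0.51 for NkdΔD6 (adjusted p = 0.0382 for the last), and none passed the fold threshold.

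Per kilobase of exon, *Ser* was more abundant than *Dl* in all 10 libraries. The ratio of *Ser* to *Dl* CPM per kilobase was 2.23 ± 0.40 in Nkd, 2.08 ± 0.35 in NkdΔR1S, 1.71 ± 0.11 in NkdΔ30aa and 2.33 ± 0.28 in NkdΔD6 disks, against 2.33 ± 0.58 in GFP disks (SD, n = 2 per group). The ratio of *N* to the sum of both ligands was 0.530 ± 0.114 in Nkd, 0.539 ± 0.001 in NkdΔR1S, 0.646 ± 0.061 in NkdΔ30aa and 0.487 ± 0.006 in NkdΔD6 disks, against 0.475 ± 0.041 in GFP disks (SD, n = 2 per group). Both ratios differed less between groups than the level of *N* itself did.

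The gene *fng* encodes the glycosyltransferase that modifies Notch in dorsal cells and makes it more sensitive to Delta than to Serrate. It is FBgn0011591 on chromosome 3L from 20925891 to 20949512, minus strand, and 1.12% of its exon bases lie opposite the exons of another gene. *fng* was at 186 and 148 CPM in Nkd, 153 and 153 CPM in NkdΔR1S, 176 and 192 CPM in NkdΔ30aa and 155 and 146 CPM in NkdΔD6 libraries, against 154 and 150.2 CPM in GFP libraries. It was not called in any comparison. Its log2 fold change over GFP ranged from -0.01 for NkdΔD6 to 0.28 for NkdΔ30aa (standard error 0.12, adjusted p = 0.0838, 95% interval 0.01 to 0.55), and with gene length offsets the NkdΔ30aa value was 0.41 (adjusted p = 0.0270), under the fold threshold.

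The nuclear genes differed between themselves. *Su(H)*, the gene of the DNA-binding protein of the pathway (FBgn0004837, chromosome 2L from 15039488 to 15043334, plus strand), was at 24.1 and 26.1 CPM in Nkd, 22.1 and 24.3 CPM in NkdΔR1S, 34.0 and 33.3 CPM in NkdΔ30aa and 28.5 and 27.2 CPM in NkdΔD6 libraries, against 19.97 and 27.6 CPM in GFP libraries. Both NkdΔ30aa libraries lay above all others, while the libraries of the other Nkd forms overlapped the GFP libraries. Of all genes, 34.6% lay above both GFP libraries in NkdΔ30aa disks. The log2 fold change there was 0.50 (standard error 0.15, adjusted p = 0.0266), which is under the fold threshold. The coactivator gene *mam* (FBgn0002643, chromosome 2R from 13991203 to 14060356, plus strand) was at 77.4 and 73.4 CPM in Nkd, 63.8 and 107 CPM in NkdΔR1S, 125 and 106 CPM in NkdΔ30aa and 78.9 and 74.9 CPM in NkdΔD6 libraries, against 50.9 and 70.4 CPM in GFP libraries. *mam* was called higher in NkdΔ30aa disks only (log2 fold change 0.93, standard error 0.24, adjusted p = 0.0143), and that call was lost without GFP replicate 1 (0.71, adjusted p = 0.0962), without NkdΔ30aa replicate 1 (0.81, adjusted p = 0.106) and without NkdΔ30aa replicate 2 (1.05, adjusted p = 0.0517). Its direction turned with gene length offsets, to log2 fold changes of -0.20 for Nkd, -0.31 for NkdΔ30aa and -0.44 for NkdΔD6, none of them called.

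γ-Secretase is the membrane protease that makes the last cut of the receptor. Its catalytic subunit is encoded by *Psn* (FBgn0284421, chromosome 3L from 20432468 to 20435156, plus strand, 2.29% of exon bases opposite the exons of another gene). *Psn* was at 153 and 147 CPM in Nkd, 163 and 142 CPM in NkdΔR1S, 94.2 and 100.2 CPM in NkdΔ30aa and 143 and 145 CPM in NkdΔD6 libraries, against 156 and 155 CPM in GFP libraries. Both NkdΔ30aa libraries were below all 8 others, where 42.4% of all genes were below both GFP libraries. In NkdΔ30aa disks *Psn* averaged 97.2 ± 4.23 CPM, against 155 ± 0.81 CPM in GFP disks (SD, n = 2), and it was called lower with a log2 value of -0.68 (standard error 0.09, adjusted p = 0.00121). In the other groups its log2 fold change over GFP was -0.05 for Nkd (95% interval -0.26 to 0.17), -0.03 for NkdΔR1S (-0.24 to 0.19) and -0.11 for NkdΔD6 (-0.32 to 0.10). *Psn* has close to the median exon length, and with gene length offsets the NkdΔ30aa value was -0.59 (standard error 0.07, adjusted p = 0.00324) and was still called. The call held under every alternative run. Of the 463 genes of 2020 to 2211 exon bases, 4.54% were called lower in NkdΔ30aa disks.

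*nct*, which encodes the Nicastrin subunit, thought to receive the substrate (FBgn0039234, chromosome 3R from 24851601 to 24854869, plus strand), was at 124 and 117 CPM in Nkd, 117 and 116 CPM in NkdΔR1S, 145 and 125 CPM in NkdΔ30aa and 120.2 and 130.2 CPM in NkdΔD6 libraries, against 123 and 122 CPM in GFP libraries. It was not called in any comparison, with log2 fold changes over GFP from -0.08 for NkdΔR1S to 0.13 for NkdΔ30aa and 95% intervals within -0.30 and 0.36. Of its exon bases, 12.9% lie opposite *HDAC11*.

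*pen-2*, which encodes a small subunit needed for maturation of Presenilin, is FBgn0053198 on chromosome 2R from 18277439 to 18278762, plus strand. It was at 27.9 and 33.5 CPM in Nkd, 59.8 and 48.1 CPM in NkdΔR1S, 24.9 and 23.3 CPM in NkdΔ30aa and 30.3 and 37.0 CPM in NkdΔD6 libraries, against 52.9 and 47.8 CPM in GFP libraries. NkdΔR1S libraries overlapped the GFP libraries, and all libraries of the other 3 Nkd forms were below both. The log2 fold change over GFP was -1.06 in NkdΔ30aa disks (standard error 0.16, adjusted p = 0.00138) and -0.71 in Nkd disks (standard error 0.16, adjusted p = 0.0281), both called. In NkdΔD6 disks it was -0.58 (standard error 0.16, adjusted p = 0.0275), with a fold of 1.496 that lies just under the threshold, and in NkdΔR1S disks it was 0.10 (standard error 0.15, 95% interval -0.25 to 0.45). Of the 463 genes of 1082 to 1227 exon bases, 24.4% were called lower in NkdΔ30aa disks and 9.07% in Nkd disks. Their median log2 fold changes over GFP were -0.51 and -0.37. Under gene length offsets *pen-2* was at -0.59 in NkdΔ30aa disks (adjusted p = 0.0132), still called, and at -0.37 in Nkd disks (adjusted p = 0.164). The call in NkdΔ30aa disks held under every alternative run.

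The level of *pen-2* carries a limit of its own, because 565 of its 1181 exon bases (47.8%) lie opposite the exons of *sbb* on the other strand. The sources used here do not state whether reads were counted by strand, so reads of the shared bases cannot be assigned with certainty. *sbb* was at 122 and 138 CPM in Nkd, 108 and 154 CPM in NkdΔR1S, 279 and 225 CPM in NkdΔ30aa and 176 and 156 CPM in NkdΔD6 libraries, against 80.2 and 90.4 CPM in GFP libraries. *sbb* thus stood higher where *pen-2* stood lower in Nkd, NkdΔ30aa and NkdΔD6 disks, but in NkdΔR1S disks *sbb* was at levels like those of Nkd disks while *pen-2* was at levels like those of GFP disks. Its part in the *pen-2* values was not tested.

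**Figure D2:**
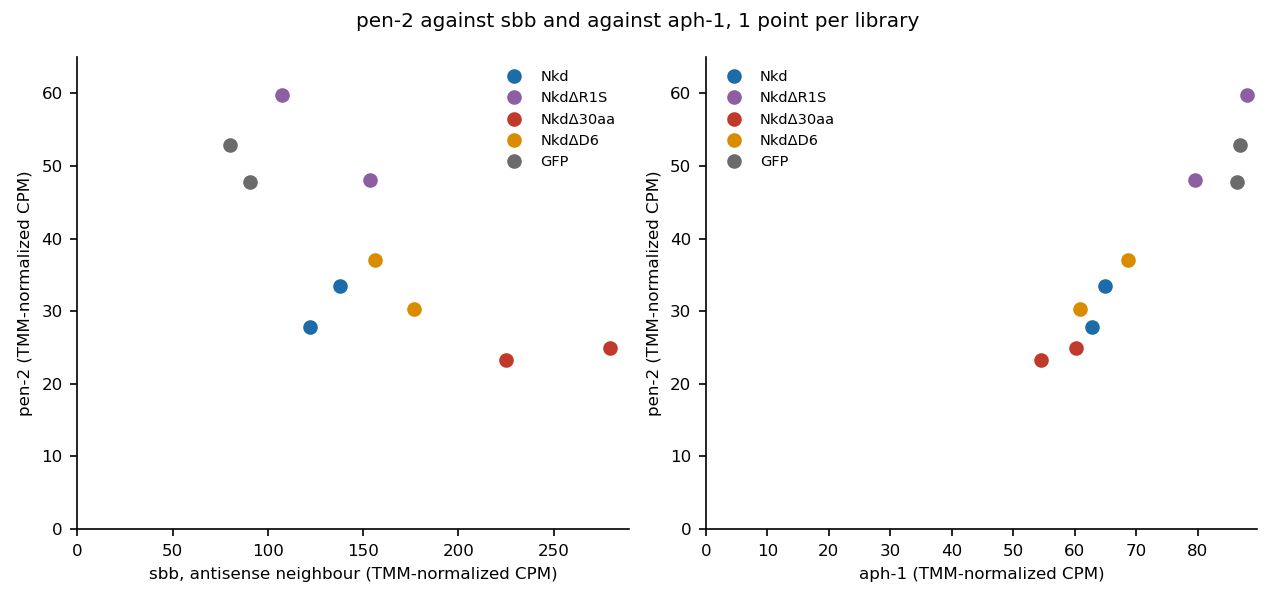
Level of *pen-2* in each of the 10 libraries against that of its antisense neighbor *sbb* (left) and against *aph-1* (right), both axes as TMM-normalized CPM from 0. Points are libraries, colored by group. The NkdΔR1S libraries, at 59.8 and 48.1 CPM of *pen-2*, have *pen-2* levels near those of GFP (52.9 and 47.8 CPM), although *sbb* is at 108 and 154 CPM in NkdΔR1S and at 80.2 and 90.4 CPM in GFP.

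*aph-1*, which encodes the scaffold subunit, shares no exon bases with another gene (FBgn0031458, chromosome 2L from 2766233 to 2767281, plus strand). It was at 62.9 and 64.9 CPM in Nkd, 88.0 and 79.5 CPM in NkdΔR1S, 60.1 and 54.5 CPM in NkdΔ30aa and 60.9 and 68.6 CPM in NkdΔD6 libraries, against 86.9 and 86.4 CPM in GFP libraries. As for *pen-2*, NkdΔR1S libraries stood with GFP and those of the other 3 forms were below both. The log2 fold change over GFP of *aph-1* was -0.60 in NkdΔ30aa disks (standard error 0.10, adjusted p = 0.00196), called at a fold of 1.512, -0.44 in Nkd disks (standard error 0.10, adjusted p = 0.0287) and -0.42 in NkdΔD6 disks (standard error 0.10, adjusted p = 0.0185), both under the fold threshold, and -0.05 in NkdΔR1S disks. All 4 values for *aph-1* with gene length offsets lay between -0.04 and 0.11. The NkdΔ30aa call was lost with RLE size factors (-0.54), with no filter (-0.58), with DESeq2 on all libraries (-0.54) or on the 4 libraries alone (-0.51), with edgeR on those 4 (-0.54), without GFP replicate 2 (-0.56) and without NkdΔ30aa replicate 2 (-0.52), in each case by the fold threshold.

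**Figure D3:**
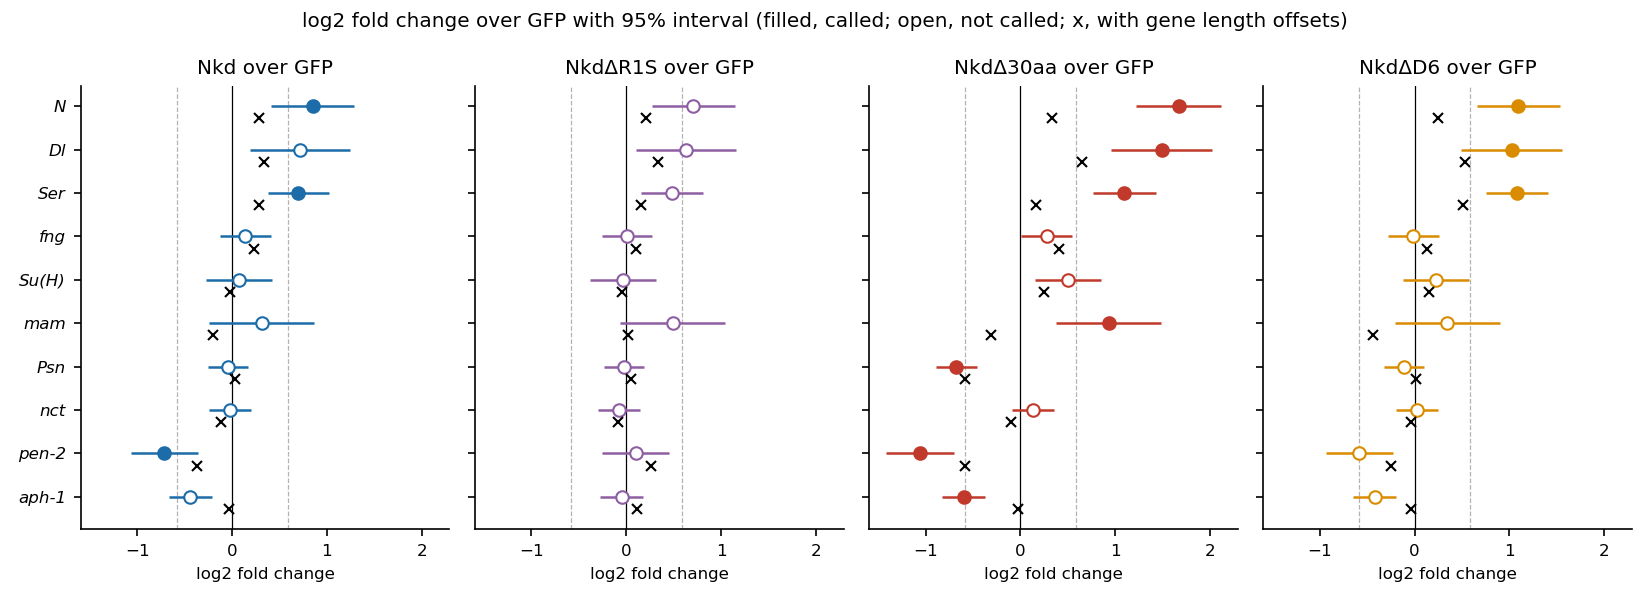
log2 fold change over GFP of the 10 genes in each group, with 95% intervals from edgeR. Filled points are called, open points are not, crosses are values with gene length offsets, and dashed lines mark a fold of 1.5. In NkdΔ30aa disks *Psn* is at -0.68, or -0.59 with offsets, while *N* is at 1.67, or 0.34 with offsets.

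Summed over the 4 subunits, γ-secretase transcripts were at 366 ± 3.80 CPM in Nkd, 407 ± 29.4 CPM in NkdΔR1S, 313 ± 14.6 CPM in NkdΔ30aa and 367 ± 18.5 CPM in NkdΔD6 disks, against 415 ± 5.36 CPM in GFP disks (SD, n = 2 per group). The sum of *N*, *Dl* and *Ser* ran the other way, at 509.9 ± 23.3 CPM in Nkd, 456 ± 82.6 CPM in NkdΔR1S, 811 ± 50.1 CPM in NkdΔ30aa and 630 ± 77.6 CPM in NkdΔD6 disks, against 298 ± 45.2 CPM in GFP disks. Both sums carry the length trend of the libraries, as *N*, *Dl* and *Ser* are long and *Psn*, *pen-2* and *aph-1* shorter. With gene length offsets the log2 fold changes over GFP were 0.21 to 0.34 for *N* and -0.04 to 0.11 for *aph-1*. *Dl*, *Psn* and *pen-2* were then still called in NkdΔ30aa disks. Within γ-secretase the changes were unequal. *nct* was not called in any group, *Psn* was called in NkdΔ30aa only, and *pen-2* was below GFP in 3 groups, so the ratio of *Psn* to *pen-2* per kilobase was 2.85 ± 0.45 in Nkd, 1.64 ± 0.10 in NkdΔR1S, 2.33 ± 0.21 in NkdΔ30aa and 2.49 ± 0.33 in NkdΔD6 disks, against 1.78 ± 0.12 in GFP disks.

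The levels per kilobase of exon give the order of the genes. In GFP disks *aph-1* (87.5 ± 0.31 CPM per kilobase), *fng* (77.6 ± 1.27) and *Psn* (75.8 ± 0.39) were the most abundant, followed by *pen-2* (42.6 ± 3.10) and *nct* (42.3 ± 0.20), whose order differed between the libraries, then *Ser* (19.6 ± 0.77) and *N* (13.5 ± 2.71). *Dl* (8.75 ± 2.50), *Su(H)* (8.07 ± 1.83) and *mam* (6.84 ± 1.55) were lowest (SD, n = 2). They stood in this order in both GFP libraries, at 6.98, 6.77 and 5.74 in replicate 1 and 10.5, 9.36 and 7.94 in replicate 2. In NkdΔ30aa disks *N* reached 43.0 ± 4.57 CPM per kilobase and *Ser* 42.0 ± 0.52, next to *nct* at 46.4 ± 4.73 and *Psn* at 47.5 ± 2.06, and *fng* was at the top with 94.1 ± 5.85. There the order of *N* with *Ser* and with *Psn* differed between the libraries. *nct* was above *N* in both, at 49.7 against 46.3 in replicate 1 and 43.0 against 39.8 in replicate 2. In the same disks *pen-2* was at 20.4 ± 0.91, below *Dl* at 24.6 ± 1.29. These levels carry the length trend of the libraries.

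**Figure D4:**
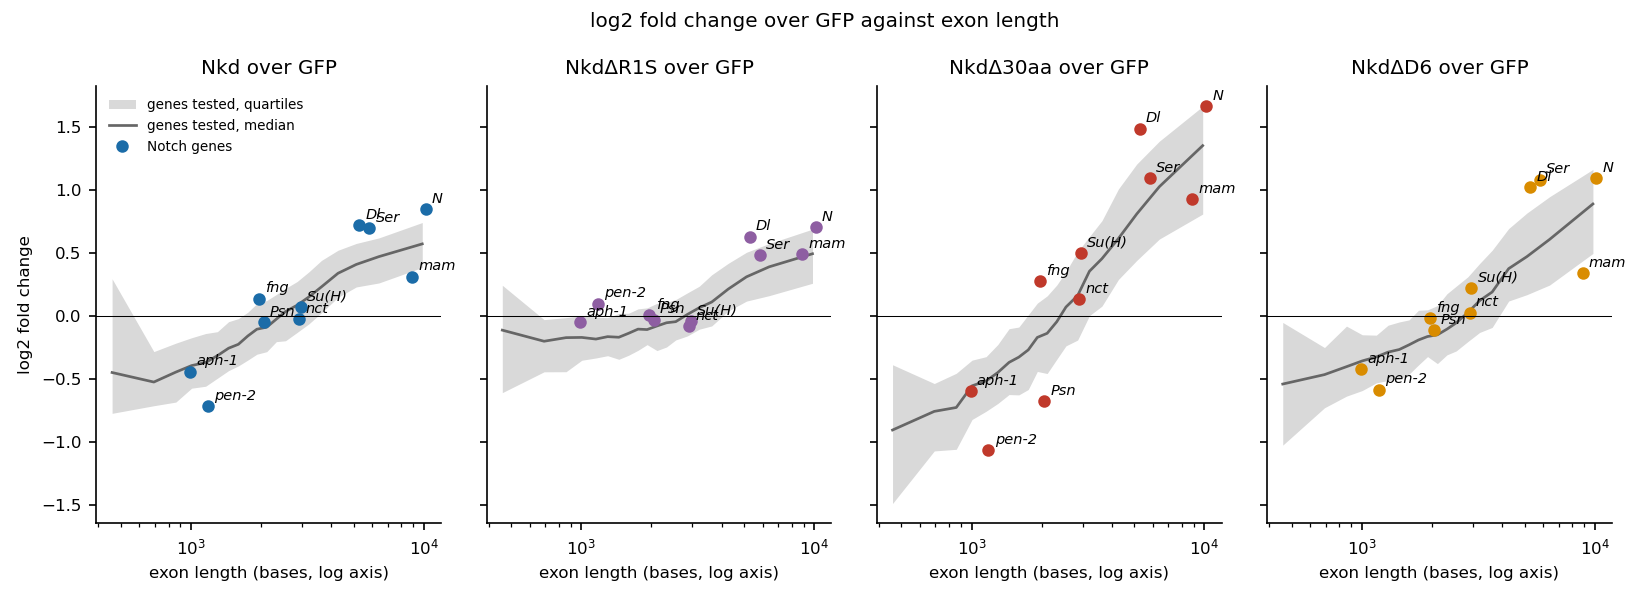
log2 fold change over GFP against exon length in bases (log axis) for the 10 Notch genes (points), with the median (line) and quartiles (gray band) of all 9264 genes tested in bins of length. In NkdΔ30aa disks *N* at 10150 bases has a log2 fold change of 1.67 where the longest bin has a median of 1.35, and *Psn* at 2048 bases one of -0.68 where its bin has a median of -0.14.

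A single test over the 5 groups asked which genes differed at all, with no choice of a pair. By edgeR, 6 of the 10 genes did at an adjusted p under 0.05, against 37.2% of all genes. They were *pen-2* (adjusted p = 0.00631), *Ser* (0.00642), *N* (0.00651), *Psn* (0.00696), *aph-1* (0.00835) and *Dl* (0.0129). Under gene length offsets 2 of these remained, *Psn* (adjusted p = 0.00848) and *pen-2* (adjusted p = 0.0198), against 12.0% of all genes. Without the offsets, the number of 6 fell when either NkdΔ30aa library was left out.

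The mutant forms were also set against full-length Nkd, to ask whether a deletion moved the level that Nkd gave. NkdΔ30aa differed from Nkd in *N* and *Psn*, 2 of 10 genes against 6.68% of all genes, 5.86% higher and 0.820% lower. *N* averaged 437 ± 46.4 CPM in NkdΔ30aa disks and 248 ± 39.3 CPM in Nkd disks (SD, n = 2), a log2 difference of 0.82 (standard error 0.19, adjusted p = 0.0404), which was 0.05 with gene length offsets (adjusted p = 0.715). *Psn* averaged 97.2 ± 4.23 CPM in NkdΔ30aa disks and 150.3 ± 4.20 CPM in Nkd disks (SD, n = 2), a log2 difference of -0.63 (standard error 0.09, adjusted p = 0.0253), which was -0.61 with gene length offsets (adjusted p = 0.00869). *Dl* (0.77, adjusted p = 0.0738), *mam* (0.62, adjusted p = 0.1435) and *Ser* (0.40, adjusted p = 0.114) were not called. At an unadjusted p under 0.05 with the fold threshold 4 genes passed, against 13.5% of all genes, and with gene length offsets 1, against 0.939%. With any of the 4 libraries left out in turn the number called was 0, except that *Psn* was called without Nkd replicate 2.

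NkdΔR1S and Nkd did not differ by the same rule in any of the 10 genes, against 0.184% of all genes called. *pen-2* came nearest, with 53.9 ± 8.31 CPM in NkdΔR1S disks and 30.7 ± 3.97 CPM in Nkd disks (SD, n = 2) and a log2 difference of 0.81 (standard error 0.16, adjusted p = 0.0751, 95% interval 0.46 to 1.17). It was the only gene of the 10 past an unadjusted p of 0.05 with the fold threshold, against 4.72% of all genes, and the only one that DESeq2 called (adjusted p = 0.00126 on all libraries), against 2.90%. With gene length offsets 0 of 10 were called, against 0.227%, and *pen-2* stood at 0.63 (adjusted p = 0.0975). The log2 difference of *aph-1* was 0.39 (adjusted p = 0.130), under the fold threshold. For *N* the difference was -0.14 (95% interval -0.58 to 0.29), for *Dl* -0.09 (-0.61 to 0.43) and for *Ser* -0.21 (-0.54 to 0.11). The level of *nkd* was also lower in NkdΔR1S disks than in Nkd disks, as given above, so the deletion and the level of transgene RNA cannot be told apart. For NkdΔR1S against GFP, where edgeR called 0 genes, *N* and *Dl* had an unadjusted p under 0.05 with the fold threshold, against 6.96% of all genes, and DESeq2 called *N* on all libraries, against 4.15%, and none on the 4 libraries alone.

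NkdΔD6 and Nkd differed in 0 of the 10 genes by edgeR, against 0.130% of all genes, and in 0 by DESeq2, against 1.16%. The number was also 0 at an unadjusted p under 0.05 with the fold threshold, against 4.65%, and 0 with gene length offsets, against 0.313%. *Ser* came nearest, at a log2 difference of 0.38 (95% interval 0.06 to 0.71, adjusted p = 0.396). The log2 differences of the other 9 ran from -0.15 to 0.30 with 95% intervals within -0.52 and 0.82, so a difference of over 1.5-fold lies within the interval of some of them.

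Other genes of the pathway were taken from lists by role, 45 genes of which 44 were tested. In NkdΔ30aa disks 12 were called higher and 6 lower than in GFP disks, against 18.2% and 12.8% of all genes, and in NkdΔD6 disks 8 higher and 10 lower, against 10.4% and 5.81%. In Nkd and NkdΔR1S disks 0 were called by edgeR, while 6 in each had an unadjusted p under 0.05 with the fold threshold, against 12.9% of all genes in Nkd and 6.96% in NkdΔR1S disks. DESeq2 called 6 in Nkd disks, against 14.3%, and 4 in NkdΔR1S disks, against 4.15%. With gene length offsets the numbers higher and lower were 2 and 5 in NkdΔ30aa disks, against 4.93% and 4.72% of all genes, and 2 and 4 in NkdΔD6 disks, against 3.03% and 2.84%. For NkdΔD6, 0 of the 44 were called without GFP replicate 1 and 0 without NkdΔD6 replicate 1.

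Of the 8 genes of nuclear cofactors, 6 were called higher in NkdΔ30aa disks, against 18.2% of all genes, and 6 in NkdΔD6 disks, against 10.4%. Their median exon length was 7112 bases, and of the 463 genes of 5619 to 7490 exon bases, 70.2% were called higher in NkdΔ30aa disks and 43.8% in NkdΔD6 disks. The count in NkdΔ30aa disks is near the share in that range, and the count in NkdΔD6 disks is above it. That range holds the median of the list, and its genes were not matched to the 8 genes by length. *nej*, the CBP acetyltransferase gene, averaged 155 ± 17.7 CPM in NkdΔ30aa disks and 97.7 ± 23.2 CPM in NkdΔD6 disks, against 30.9 ± 5.67 CPM in GFP disks (SD, n = 2), with log2 fold changes of 2.32 and 1.66 (adjusted p = 0.00130 and 0.0122). *gro*, which encodes a corepressor of the *Enhancer of split* proteins, had the lowest called values of the list, 1.06 in NkdΔ30aa disks (adjusted p = 0.00133) and 0.79 in NkdΔD6 disks (adjusted p = 0.0122). With gene length offsets *nej* and *H*, the gene of the Su(H) corepressor Hairless, were called higher in both groups, *nej* at 0.70 and 0.59 and *H* at 0.70 and 0.73, and *CtBP* was called lower in NkdΔ30aa disks at -0.90. *H* and *CtBP* were named from these values.

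Genes of the *Enhancer of split* complex, which the pathway activates, were listed together with related Bearded family genes. This list had a median log2 fold change over GFP of -0.38 in Nkd, -0.25 in NkdΔR1S, -0.53 in NkdΔ30aa and -0.66 in NkdΔD6 disks, beside -0.05, -0.03, -0.13 and -0.10 over all genes. Under the length offsets these medians were 0.06, -0.08, 0.06 and -0.25 in the same order, so the sign turned in Nkd and NkdΔ30aa disks. In NkdΔ30aa disks 5 of 14 were called lower, from -0.65 for *E(spl)malpha-BFM* to -1.14 for *E(spl)m6-BFM* (adjusted p = 0.00429 and 0.00364), and in NkdΔD6 disks 10 of 14, from -0.61 for *Tom* to -1.15 for *E(spl)m6-BFM* (adjusted p = 0.00972 and 0.0121). *E(spl)m6-BFM* averaged 9.21 ± 2.31 CPM in NkdΔ30aa disks and 9.10 ± 1.73 CPM in NkdΔD6 disks, against 20.3 ± 3.14 CPM in GFP disks (SD, n = 2). Over all genes 12.8% were called lower in NkdΔ30aa disks and 5.81% in NkdΔD6 disks. The *Enhancer of split* and related genes are short, with a median of 960 exon bases, and of the 463 genes of 932 to 1081 exon bases, 30.5% were called lower in NkdΔ30aa disks, near the 5 of 14, and 11.9% in NkdΔD6 disks, below the 10 of 14. Genes of that range were not matched to the 14 genes by length. Under gene length offsets 0 of 14 were called in NkdΔ30aa disks and only *E(spl)m6-BFM* in NkdΔD6 disks (-0.81, adjusted p = 0.0440). For NkdΔD6 the number called lower was 5 with RLE size factors, 5 with no filter and 5 by DESeq2, and 0 without GFP replicate 1 or without NkdΔD6 replicate 1.

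Upstream of these, *kuz*, which encodes the metalloprotease that makes the first ligand-dependent cut, averaged 107 ± 12.8 CPM in NkdΔ30aa disks and 72.3 ± 2.69 CPM in NkdΔD6 disks, against 38.9 ± 11.8 CPM in GFP disks (SD, n = 2). Its log2 fold changes were 1.46 (adjusted p = 0.00205) and 0.89 (adjusted p = 0.0277). In NkdΔ30aa disks the furin gene *Fur2* (0.75), *mib1*, a ubiquitin ligase gene for ligand endocytosis (0.75), and the receptor trafficking genes *Su(dx)* (0.83) and *numb* (0.67) were called higher, and *O-fut1*, the O-fucosyltransferase gene of the receptor, was called lower (-0.61, adjusted p = 0.00331). *ct*, a margin target, was called higher in NkdΔ30aa disks (1.94, adjusted p = 0.00205) and in NkdΔD6 disks (1.25, adjusted p = 0.0243), at 16.7 ± 2.85 CPM and 10.3 ± 1.17 CPM against 4.33 ± 0.944 CPM in GFP disks (SD, n = 2). *ct* is also expressed in adult muscle precursors. Their listed markers summed to 374 to 390 CPM in NkdΔ30aa and 304 to 324 CPM in NkdΔD6 libraries, against 246 to 302 CPM in GFP libraries. That list includes *ct* itself and *vg*, which is also a listed pouch marker (median 163 CPM over the libraries). The sum is thus no separate measure of these cells, and their part in the *ct* value was not tested. With gene length offsets 0 of the 7 genes given with fold changes in this paragraph were called. Their lists did hold calls with the offsets, all lower. In NkdΔ30aa disks these were 1 of 3 ligand endocytosis genes, 1 of 4 genes of cleavage outside the membrane and 2 of 8 trafficking genes. Of all genes, 4.72% were called lower there. In NkdΔD6 disks 1 gene of each of these lists was called lower, against 2.84% of all genes.

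**Figure D5:**
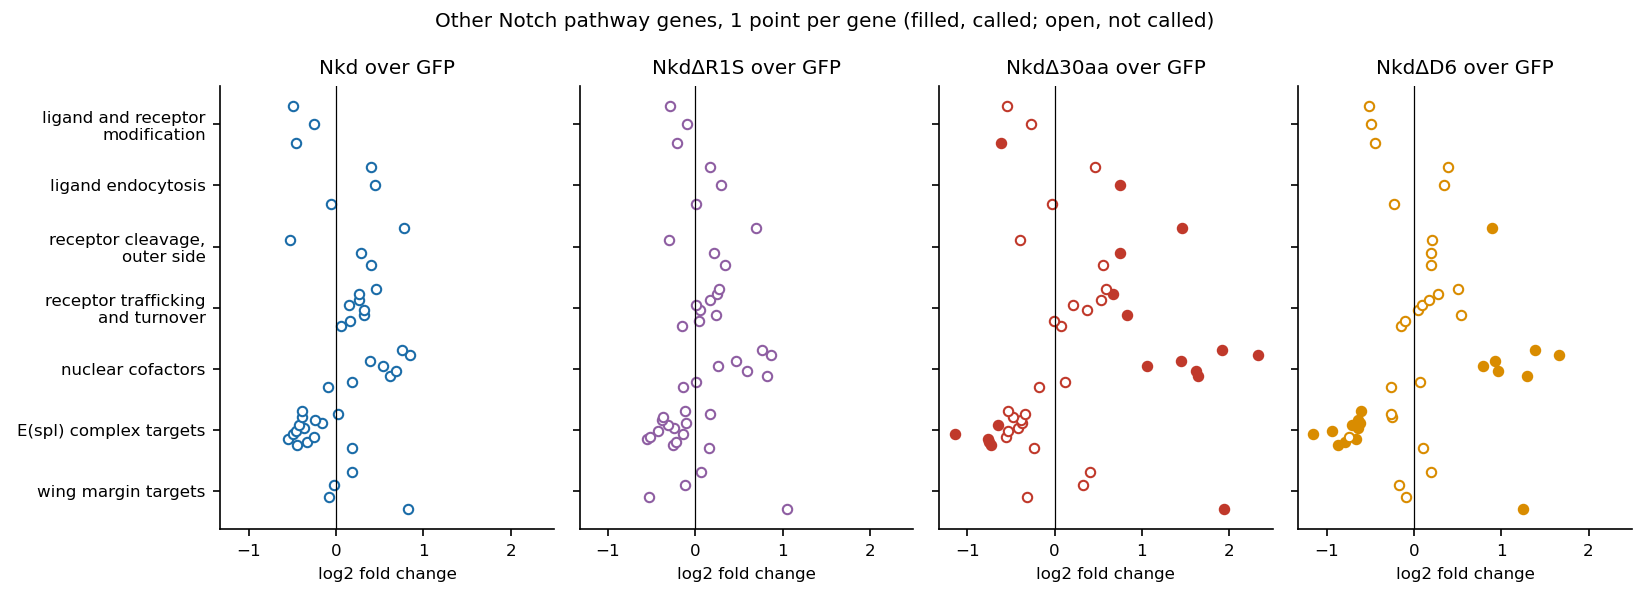
log2 fold change over GFP of 44 other Notch pathway genes by role, with 1 point per gene. Filled points are called and open points are not. In NkdΔ30aa and NkdΔD6 disks 6 of 8 nuclear cofactor genes are called higher, against 18.2% and 10.4% of all genes and 70.2% and 43.8% of genes of 5619 to 7490 exon bases, while 5 and 10 of 14 *Enhancer of split* complex and related genes are called lower, against 12.8% and 5.81% of all genes and 30.5% and 11.9% of genes of 932 to 1081 exon bases.

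Over the 10 libraries, the genes whose log2 CPM was most like that of *N* were *Taf2* (Pearson r = 0.996), *sli* (0.996) and *CG31635* (0.995), with 3972, 9618 and 9511 exon bases. With gene length offsets these correlations were 0.877, 0.920 and 0.492. Among the 10 genes, *Dl* was most like *N* (0.984, or 0.855 with offsets) and *Ser* followed (0.903, or 0.392 with offsets). The genes most like *pen-2* were *CG32576* (0.991), *CG5885* (0.989) and *RpL38* (0.984), and these stayed at 0.980, 0.909 and 0.961 with offsets. *aph-1* was at 0.975 with *pen-2*, or 0.681 with offsets. These correlations describe 10 libraries that share groups, depth and the length trend, and carry no p.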

How the data were processed

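RNA of 10 wing disk samples, 5 groups of 2, was analysed. The deposited values are raw counts per gene, which the authors made with HISAT2 2.2.1 (genome BDGP6) and featureCounts (version and strand setting not given in the sources used here). Exon lengths are those of the count table. Of 17807 genes, 17710 matched a symbol and 17512 had the span of the reference annotation.

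The main test was edgeR 4.0.16 in R 4.3.3 (TMM scaling, filterByExpr by group, robust quasi-likelihood fit), as 1 fit with group as the only factor, and p-values were adjusted by Benjamini-Hochberg over 9264 genes. The standard error is the size of the log2 fold change divided by the square root of F. The code was tested on simulated data. The 10 genes were all named. Of each other list, the called gene with the highest and that with the lowest value were named, as were the 3 genes most like *N* and *pen-2*. The genes and lists were chosen with earlier results of these data known. Depth differed little between libraries, and precision was limited by how far the samples of a group lay apart.

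Alternatives were RLE size factors, no filter, other thresholds, DESeq2 1.42.0, edgeR on 2 groups, a replicate block, gene length offsets (lowess, span 0.3, prior count 2) and leaving out each library in turn, with the lone library of a group then assumed to vary like the other groups. Leaving out GFP replicate 1 and Nkd replicate 1 together was chosen after seeing the data. The libraries of a group differed by more than counting noise (chi-square per gene 18.7 to 92.7). No sequences were printed.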

Additional observations from a re-analysis of the deposited data

Results flagged for a closer look

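The effects of NkdΔ30aa and of Nkd over GFP differed in 2 of the 10 genes by the test of NkdΔ30aa against Nkd. Of all genes, 6.68% were called in that test, 5.86% higher and 0.820% lower. The number of Notch genes called moved under the alternatives given below. The log2 difference of *N* was 0.818, with log2 fold changes over GFP of 1.67 in NkdΔ30aa disks and 0.85 in Nkd disks, and it was 0.05 with gene length offsets. The log2 difference of *Psn* was -0.629, with log2 fold changes over GFP of -0.68 in NkdΔ30aa disks and -0.05 in Nkd disks, and it was -0.61 with gene length offsets.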

How the results depend on the processing

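The number of Notch genes called for Nkd against GFP was 3, and it was 0 with gene length offsets, 0 with edgeR on the libraries of the 2 groups, 0 without the 2 libraries with the most salivary gland RNA, and 0 to 3 with 1 library left out (0 without GFP replicate 1, without Nkd replicate 1 or without Nkd replicate 2). For NkdΔ30aa against GFP it was 7, and 3 with gene length offsets (*Dl*, *Psn* and *pen-2*), and 5 to 7 with 1 library left out. For NkdΔD6 against GFP it was 3, and 5 with no fold threshold, 0 with gene length offsets, and 0 to 3 with 1 library left out (0 without GFP replicate 1 or without NkdΔD6 replicate 1). For NkdΔR1S against GFP it was 0, and 2 at an unadjusted p under 0.05 with the fold threshold, 1 with DESeq2 on all libraries and 0 with any library left out. For NkdΔR1S against Nkd it was 0, and 1 at an unadjusted p, 1 with DESeq2 on all libraries and 1 with DESeq2 on the 2 groups. For NkdΔ30aa against Nkd it was 2, and 4 at an unadjusted p, 1 with RLE size factors, 1 with no filter, 1 with gene length offsets, and 0 to 1 with 1 library left out. For NkdΔD6 against Nkd it was 0 under every alternative run. The number that differed among the 5 groups was 6, and 2 with gene length offsets and 0 to 7 with 1 library left out. The number of all genes called moved too. With gene length offsets it went from 701 to 56 for Nkd and from 1497 to 544 for NkdΔD6 over GFP. With no fold threshold it was 2514 for NkdΔD6 over GFP. For NkdΔ30aa over Nkd it was 543 higher and 76 lower. With RLE size factors these were 266 and 62, with no filter 85 and 70, and with gene length offsets 35 and 52. The counts with libraries left out, and those with edgeR or DESeq2 on the libraries of 2 groups, are given without the number of all genes called. They are thus no result about the Notch genes alone. The cause of these moves was not tested.

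The 28 gene values given with a direction were those over GFP with an unadjusted p under 0.05, and *mam* in each comparison with GFP. Over Nkd, *N* and *Psn* in NkdΔ30aa disks and *pen-2* in NkdΔR1S disks were added. They were thus picked in part for a clear direction. Among them, *mam* reversed with gene length offsets (-0.20 for Nkd, -0.31 for NkdΔ30aa and -0.44 for NkdΔD6). Of 286 alternative values that keep the libraries, or leave out the 2 with most salivary gland RNA, 234 kept direction and call. Of 112 with 1 library left out 80 did, and 0 reversed. The other 15 gene values over GFP had 214 alternative values, of which 63 changed sign, at sizes of up to 0.30 on the log2 scale. RLE size factors and no filter moved the median log2 fold change of all genes by 0.01 to 0.10 over GFP. The calls of all genes split into 283 higher and 418 lower for Nkd, against 497 and 238 with RLE and 476 and 191 with no filter, and into 959 and 538 for NkdΔD6, against 1090 and 320 with RLE, 1008 and 286 with no filter and 281 and 263 with gene length offsets. For NkdΔ30aa over Nkd they split into 543 and 76, against 85 and 70 with no filter and 35 and 52 with offsets. The offsets moved the median of all genes by 0.13 for NkdΔD6 over GFP and by 0.10 or less for the other forms.

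The deviations of samples with the same replicate number had correlations between -0.22 and 0.37, above 0.1 in 5 of 10 pairs of groups and below 0 in 4. As not every pair of groups was above 0.1 and the labels name no shared batch, the numbers were not taken as a pairing. A replicate block changed no count of Notch genes called (3, 0, 7 and 3 over GFP, and 0, 2 and 0 over Nkd). With gene length offsets and the block they were 0, 0, 3 and 0 over GFP, and 0, 1 and 0 over Nkd, and 2 genes differed among the groups. *mam* then stood at -0.20 for Nkd, -0.31 for NkdΔ30aa and -0.43 for NkdΔD6.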
